A study of Mus musculus with 106 samples.

Results

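The 10 genes described here encode the enzymes that supply acetyl-CoA and NADPH, build fatty acids and desaturate them, together with a small acidic protein and its paralog that act on the pathway: Acly, Acss2, Acaca, Acacb, Fasn, Scd1, Scd2, Me1, Mid1ip1 and Thrsp. They were taken by symbol from 4 tables of gene counts with 21647 to 23420 rows each, which hold 25872 distinct symbols between them. Each of the 10 was found exactly once in every table. The table of 8 cold tissues lists Ensembl identifiers, and 21583 of its 21647 were turned into symbols.

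De novo lipogenesis turns citrate exported from the mitochondrion, or acetate, into cytosolic acetyl-CoA, carboxylates it to malonyl-CoA, and condenses these units into palmitate with NADPH as the reductant, after which palmitate can be desaturated and stored as triglyceride. Liver and white fat are the classical sites of the pathway. Brown fat burns fatty acids for heat and is known to run fatty acid synthesis and oxidation side by side under chronic cold, and malonyl-CoA also restrains the entry of fatty acids into mitochondria.

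The samples came from wild-type male mice of the strain C57BL/6J, written C57BL/6 in part of the labels, aged 8 weeks at the start, and the study compared cold or warm housing with room temperature, tissue by tissue. The cold groups spent 5 days each at 18 °C and 14 °C and then 2 weeks at 10 °C (labelled week 11), and were set against 22 °C controls in 11 tissues: interscapular brown adipose tissue (iBAT), inguinal subcutaneous (ingSAT) and perigonadal visceral (pgVAT) white adipose tissue, quadriceps, ileum, liver, spleen, bone marrow, spinal cord, brain without hypothalamus, and hypothalamus. The warm groups spent 4 weeks at 34 °C (labelled 12 weeks) and were set against 22 °C controls in 5 tissues, iBAT, quadriceps, ileum, liver and brain. The study also profiled ingSAT and pgVAT at 34 °C, which are not among the libraries used here. A group had 3 libraries, except quadriceps at 22 °C (6), bone marrow (6 and 6) and spinal cord (5 and 5). A library of the cold experiment pooled 2 mice, whereas bone marrow and spinal cord were from single mice. For warm iBAT the sources differ on whether mice were pooled. The cold and the warm animals came from different vendors, and the library kit and instrument differed, so levels of different tables are given side by side only. The methods name the TruSeq kit for bone marrow, spinal cord and the warm experiment and the NEBNext kit for the rest, while the labels give TruSeq for all quadriceps libraries, those of 10 °C included. Quadriceps at 10 °C stands in 1 table with the warm tissues, and whether its libraries and all of their controls were made with the same kit is not settled by these sources. P-values measure the spread between these libraries, which may be partly technical.

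The 106 libraries held 4262403 to 62880248 counts (median 21585677), and no pair held identical counts. Defining markers of the labelled tissue were present: the summed CPM (TMM-scaled share of the counts of a library) of 6 hepatocyte markers was 65740.1 to 73471 in liver at 22 °C of the cold experiment, that of 8 skeletal muscle markers was 200556 to 349351 in quadriceps at 22 °C, and that of 7 brown adipocyte markers was 8141 to 13048 in iBAT at 22 °C of the cold experiment. The brain library of 22 °C replicate 2 in the cold experiment stood apart. Its 6 hepatocyte markers summed to 69019 CPM, with albumin (Alb) at 50394 CPM against 1.47 to 2.68 in the other 22 °C libraries and 2.13 to 6.94 at 10 °C, so brain is given with and without it. For quadriceps the experiment of each 22 °C library is not given by the labels. All 6 were used for both temperatures, which therefore share their controls, and values against the 3 libraries of the matching header set stand beside them. The study's own muscle means at 22 °C matched the first header set in 1948 of 1999 genes. The 6 therefore mix the controls of the cold experiment with 3 others. In bulk tissue, fewer cells of a type and less RNA per cell cannot be told apart.

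Of the 10 genes, 8 had a promoter in RefSeq's table (GRCm38.p6), 9 promoters in all since Me1 has a pair. Scd1 and Scd2 had none there. The 4 below are shown because Fasn and Thrsp were the genes whose promoters held the most copies of CCAAT, Acss2 held 1, and Mid1ip1, whose change in warm iBAT had the other sign, held none. Each line gives the 250 bases before the start site, 5′ to 3′, with the letters CCAAT or ATTGG in capitals. Positions are chr11:120824548-120824797, minus strand, for Fasn, chr7:97417551-97417800, minus strand, for Thrsp, chr2:155517793-155518042, plus strand, for Acss2, and chrX:10717115-10717364, plus strand, for Mid1ip1.
Fasn: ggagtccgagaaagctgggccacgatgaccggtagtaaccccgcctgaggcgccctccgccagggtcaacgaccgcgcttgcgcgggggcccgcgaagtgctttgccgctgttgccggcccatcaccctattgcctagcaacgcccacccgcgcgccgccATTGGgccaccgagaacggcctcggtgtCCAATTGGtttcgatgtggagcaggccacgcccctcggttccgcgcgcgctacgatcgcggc
Thrsp: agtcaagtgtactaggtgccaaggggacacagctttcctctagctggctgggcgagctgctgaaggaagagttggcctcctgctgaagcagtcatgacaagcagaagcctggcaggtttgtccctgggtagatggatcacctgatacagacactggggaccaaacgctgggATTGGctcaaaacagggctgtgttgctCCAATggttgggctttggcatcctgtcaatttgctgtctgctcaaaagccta
Acss2: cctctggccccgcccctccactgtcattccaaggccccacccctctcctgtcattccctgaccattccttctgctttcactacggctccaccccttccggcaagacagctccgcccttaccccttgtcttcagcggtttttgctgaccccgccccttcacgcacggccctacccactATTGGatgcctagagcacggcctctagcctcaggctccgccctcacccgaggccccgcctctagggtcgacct
Mid1ip1: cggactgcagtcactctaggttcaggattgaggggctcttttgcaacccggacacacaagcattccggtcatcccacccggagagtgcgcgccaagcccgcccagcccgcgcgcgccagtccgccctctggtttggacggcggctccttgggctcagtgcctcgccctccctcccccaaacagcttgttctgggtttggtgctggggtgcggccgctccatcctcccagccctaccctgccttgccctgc

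In Fasn, CCAAT lay 62 bases before the start site on the strand of the gene and 90 and 59 bases before it on the other strand, the neighbouring pair sharing letters. In Thrsp it lay 52 bases before the start site on the strand of the gene and 79 bases before it on the other strand, and in Acss2 73 bases before it on the other strand. Read on both strands over the whole 300-base windows, which add 50 bases after the start site, CCAAT was in 6 of the 9 promoters of these genes and in 37.4% of all 32851 promoters, and GGGCGG was in 4 of 9 and in 35.7%. CACGTG, an E-box, was in 0 of 9 against 7.15% of all, and TCACNCCAC was in 0 of 9 against 1.24%. These matches are letters in a window and no record of a factor's binding. By the gene positions given below, the windows of Acaca, Acacb and Mid1ip1 lie wholly inside the gene, away from its 5′ end. So does the Me1 window that starts at chr9:86687228.

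On GRCm38 the genes of acetyl-CoA supply are Acly (ENSMUSG00000020917, chr11:100476353-100528000, minus strand) and Acss2 (ENSMUSG00000027605, chr2:155517948-155585724, plus strand), and those of chain building are Acaca (ENSMUSG00000020532, chr11:84129672-84401651, plus strand), Acacb (ENSMUSG00000042010, chr5:114146535-114250761, plus strand) and Fasn (ENSMUSG00000025153, chr11:120805846-120824547, minus strand). The desaturases Scd2 (ENSMUSG00000025203, chr19:44293674-44306864, plus strand) and Scd1 (ENSMUSG00000037071, chr19:44394455-44407879, minus strand) are near each other. The others are Me1 (ENSMUSG00000032418, chr9:86581371-86695953, minus strand), Mid1ip1 (ENSMUSG00000008035, chrX:10715013-10719690, plus strand) and Thrsp (ENSMUSG00000035686, chr7:97412938-97417730, minus strand). Some of these genes could share reads with other loci. Of the 50-base windows of their transcripts, 30.4% of Acaca recurred in another gene's transcripts (mostly Gm5182), 28.3% of Me1 (mostly Gm7049), 20.9% of Mid1ip1 (Gm14493, whose exons overlap 26.9% of those of Mid1ip1 on the other strand), 6.13% of Acss2, 4.56% of Scd1 (mostly Scd3) and 3.97% of Scd2 (mostly Scd1). For Thrsp the share was 0.421%, and for Acly, Acacb and Fasn it was 0. The counts of Acaca, Me1 and Mid1ip1 are therefore the least certain.

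Within the table of 8 cold tissues at 22 °C, Acly, Acss2, Acaca, Acacb, Fasn, Scd1 and Thrsp had their highest mean level in iBAT, whereas Me1 stood at 70.6 CPM per kb there, below ingSAT (138) and pgVAT (77.5). Per kb of exon, in library-size CPM, Scd1, the stearoyl-CoA desaturase that places the Δ9 double bond in palmitate and stearate, had the highest level of the 10 in iBAT of the cold experiment, 9695 ± 3608 (SD, n = 3). Thrsp, known as Spot 14, stood there at 2416 ± 758 and Fasn, the multifunctional synthase of palmitate, at 2289 ± 899, which did not differ beyond their spread. Next in order were Acly, which splits citrate into acetyl-CoA and oxaloacetate, at 824 ± 421, and Acacb at 261 ± 17.5, followed by Acaca at 183 ± 73.0, Acss2 at 164 ± 74.1, Me1 at 70.6 ± 32.7, Scd2 at 67.6 ± 43.2 and Mid1ip1 at 21.6 ± 5.43. Library ranges overlapped between Acaca and Acss2, Acss2 and Me1, Me1 and Scd2, and Scd2 and Mid1ip1, and did not between Acly and Acacb or between Acacb and Acaca.

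Fasn ran in the order iBAT (3077 warm, 2289 cold experiment), ingSAT (1497), pgVAT (419.8) and liver (89.3 cold, 53.8 warm experiment), all as mean CPM per kb, with liver of the warm experiment below hypothalamus, followed by hypothalamus, spinal cord and brain (67.9, 50.8 and, without replicate 2, 48.4 in the cold experiment, 43.4 in brain of the warm one) and ileum of the cold experiment (28.3), and ended with quadriceps (21.8), spleen (21.5), ileum of the warm experiment (18.6) and bone marrow (9.74). Neighbours overlapped from iBAT to pgVAT and from the cold ileum to bone marrow, whereas pgVAT lay above liver in every library. Thrsp spanned more, from 2957 in iBAT of the warm experiment to 0.295 in bone marrow. Scd2, the desaturase of neural tissue and developing skin, followed another order: it was highest in spinal cord (802), then hypothalamus (409.6) and brain (398 in the warm experiment, 362 in the cold one without replicate 2), and lowest in liver (1.39 and 2.11). Mid1ip1 had its highest level in spinal cord too (103). Acacb, the acetyl-CoA carboxylase bound to mitochondria, was higher in quadriceps (58.8) than in liver (24.1 and 10.3), in contrast to Acaca, the cytosolic carboxylase (4.85 in quadriceps, 10.0 and 11.4 in liver).

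**Figure D1:**
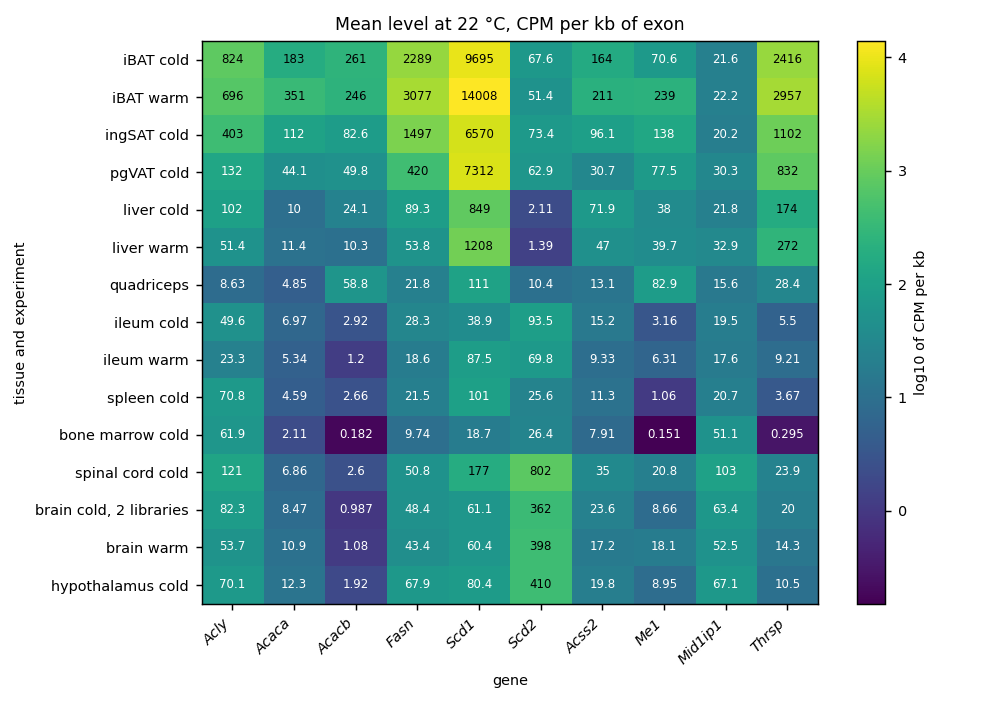
Mean level of each gene (columns) in each tissue at 22 °C (rows, with the experiment), as CPM per kb of exon, coloured on a log10 scale; brain of the cold experiment is drawn without replicate 2. Yellow is highest. The fat rows are brightest for Scd1, Fasn and Thrsp, while Scd2 is highest in spinal cord (802). Rows from different tables stand side by side only.

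Counted over all comparisons, the members of the pathway were called higher 36 times and lower 0 times over the 11 tissues at 10 °C, and higher 2 times and lower 13 times over the 5 tissues at 34 °C. Of all genes tested in a tissue, 0.181% to 7.2% were called higher and 0.0904% to 9.14% lower at 10 °C. At 34 °C these shares ran from 0.0429% to 12.2% and from 0.15% to 7.19%. A gene was called when edgeR's quasi-likelihood test gave an unadjusted p of at most 0.05 and the fold change was above 1.5, and adjusted p-values are Benjamini-Hochberg values over all genes tested in that tissue. Thrsp was called higher at 10 °C in 6 tissues, Acly, Acss2, Me1 and Mid1ip1 in 4 each, Acaca, Fasn, Scd1 and Scd2 in 3 each and Acacb in 2. All calls at 10 °C were in the 3 fat depots, quadriceps, ileum, liver and spleen.

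**Figure D2:**
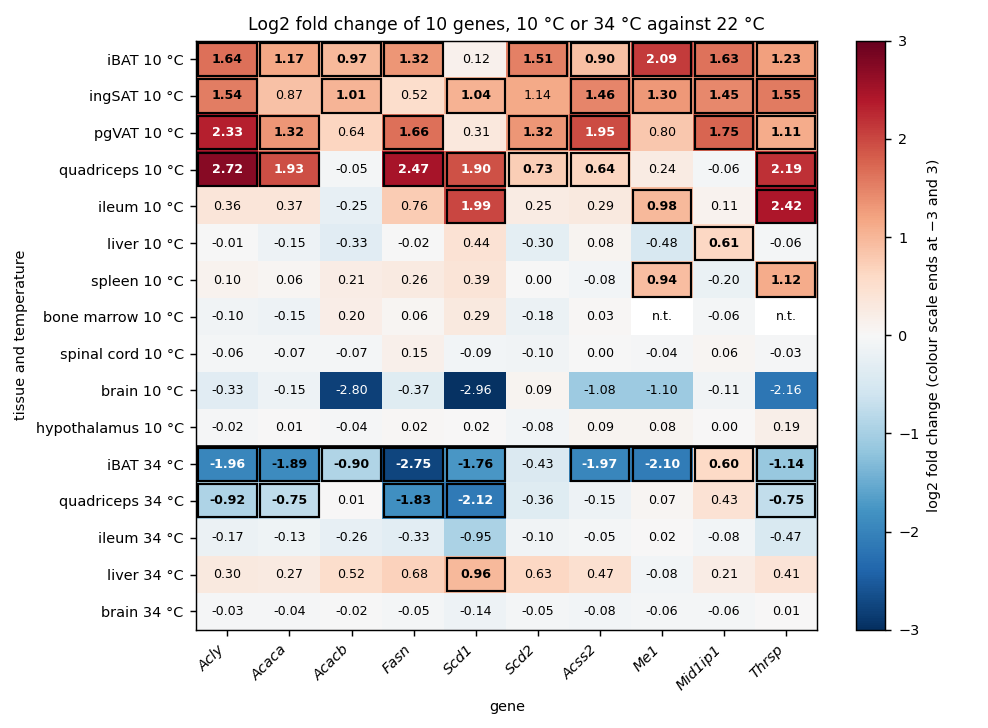
Log2 fold change of each gene (columns) against 22 °C in each tissue and temperature (rows), printed in the cells, with blue below 0, red above 0, boxes around called values and n.t. where a gene was not tested. The fat depots are red throughout at 10 °C, and iBAT is blue at 34 °C apart from Mid1ip1 (0.60); in brain at 10 °C the low values of Acacb, Scd1 and Thrsp rest on 22 °C replicate 2.

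In iBAT, 9 of the 10 genes were higher at 10 °C, among them Me1 4.26-fold, Acly 3.12-fold and Mid1ip1 3.09-fold, and 0 were lower. Of all 12791 genes tested in iBAT, 6% were called higher and 7.24% lower. At an adjusted p under 0.05 stood 7 of the 10, against 11.3% of all genes. The median log2 fold change of the 10 was 1.28, beside −0.02 over all genes tested, and in 9 of the 10 the lowest 10 °C library exceeded the highest 22 °C library. The share of all genes whose groups separate in this way was not computed, here or in the tissues below, so such counts are descriptions only. Together the 10 genes made up 8.21% ± 2.97 (SD, n = 3) of all counts at 22 °C and 12.5% ± 0.792 at 10 °C.

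Both genes of acetyl-CoA supply were called higher. Acly had 4512, 4713 and 1511 CPM in the 22 °C replicates 1 to 3 and 9917, 12385 and 11239.6 CPM at 10 °C. The groups were far apart although 22 °C replicate 3 lay well below its group, and the log2 fold change was 1.64 (standard error, SE, 0.389, adjusted p 0.0280, quasi-likelihood test of edgeR, adjusted after Benjamini-Hochberg). Acss2, which makes acetyl-CoA from acetate, went from 677, 807 and 295 to 1158, 1048 and 1108 CPM. Its groups did not overlap, and its change of 0.90 (SE 0.311) passed the unadjusted limit but not the adjusted one (adjusted p 0.0968, same test). Without 22 °C replicate 3, the lowest library for 9 of the 10 genes, the change of Acss2 was 0.57 and its call was lost. The other 8 calls remained with any single library left out.

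Both acetyl-CoA carboxylases rose. Acaca had 1879, 2139.8 and 913 CPM at 22 °C and 3265, 4103 and 3690.1 CPM at 10 °C, a log2 fold change of 1.17 (SE 0.295, adjusted p 0.0361, same test). Acacb, whose malonyl-CoA is linked to control of carnitine palmitoyltransferase, had 1936, 2237 and 2364 CPM at 22 °C and 3476, 5235 and 4050.2 CPM at 10 °C, a change of 0.97 (SE 0.202, adjusted p 0.0177). Its 22 °C libraries were close to each other, and here replicate 3 was the highest of them. Fasn had 18572, 32007 and 15009.7 CPM at 22 °C and 42754, 69286 and 51823 CPM at 10 °C. All 10 °C libraries were higher, replicate 2 being the highest at each temperature, and the change was 1.32 (SE 0.355, adjusted p 0.0449). Me1, malic enzyme, a cytosolic source of NADPH, had 312, 290.0 and 117 CPM at 22 °C and 1088, 978 and 997 CPM at 10 °C, the steepest rise of the 10 genes in this tissue with a change of 2.09 (SE 0.321, adjusted p 0.00517).

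Scd1 was the only one of the 10 genes not called in cold iBAT, with 43635, 61639.9 and 27901 CPM at 22 °C and 47319, 46639 and 51196 CPM at 10 °C, where all 10 °C libraries fell inside the 22 °C range (log2 fold change 0.12, SE 0.327, adjusted p 0.839, same test). Scd2 had 509.9, 424 and 103 CPM at 22 °C and 1040.1, 812 and 1093 CPM at 10 °C. Its groups did not overlap, with a change of 1.51 (SE 0.470, adjusted p 0.0722). The difference between these paralogs was not tested.

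The paralogs Mid1ip1, which promotes the polymerisation of acetyl-CoA carboxylase, and Thrsp, a thyroid hormone responsive nuclear and cytosolic protein of lipogenic tissues, both rose. Mid1ip1 had 47.3, 46.1 and 30.3 CPM at 22 °C and 147, 110.5 and 124 CPM at 10 °C (log2 fold change 1.63, SE 0.186, adjusted p 0.00132, same test). Thrsp had 3390.0, 3435 and 1910.3 CPM at 22 °C and 7283, 6047 and 7176 CPM at 10 °C (change 1.23, SE 0.253, adjusted p 0.0163). Markers of other cells moved in the same libraries. The 8 skeletal muscle markers, none at 0, summed to 6877 to 9878 CPM at 22 °C and 2717 to 5638 CPM at 10 °C, and 6 of 8 were called lower, while the 8 adipocyte markers, none at 0, summed to 17169 to 20913 and 18666 to 19214 CPM with 0 called higher and 1 lower. The 7 brown adipocyte markers, none at 0, summed to 8141 to 13048 CPM at 22 °C and 14334 to 18050.2 CPM at 10 °C, without overlap, with 4 called higher and 1 lower. The 6 hepatocyte markers summed to 171 to 381 and 119.8 to 176 CPM, with 4 of 5 tested called lower, and the 6 epididymis markers to 0.417 to 0.615 and 3.76 to 38.6 CPM, with 4 of 4 tested called higher. The part of these cells and tissues in the changes was not tested.

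In ingSAT, 7 of the 10 genes were called higher at 10 °C and 0 lower, beside 7.2% of all genes called higher and 9.14% lower. Only Thrsp was under an adjusted p of 0.05, against 7.51% of all genes. The lowest 10 °C library exceeded the highest 22 °C library for 9 of the 10, Fasn being the exception, and the median log2 fold change of the 10 was 1.22 (−0.01 over all genes). Thrsp had 1841, 1552 and 889 CPM at 22 °C and 4809, 3787 and 3949.9 CPM at 10 °C. The lowest cold library was far above the highest control, and the log2 fold change was 1.55 (SE 0.300, adjusted p 0.030, quasi-likelihood test of edgeR, adjusted after Benjamini-Hochberg).

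Scd1, not called in iBAT, was called higher here: 34492, 24696 and 35789 CPM at 22 °C and 76374, 51882 and 67168 CPM at 10 °C, a log2 fold change of 1.04 (SE 0.330, adjusted p 0.0995, same test). Fasn was called in iBAT and not here. It had 22110.5, 20045 and 4184 CPM at 22 °C and 30444, 17288 and 18889 CPM at 10 °C, and a pair of the cold libraries lay inside the 22 °C range (change 0.52, SE 0.604, adjusted p 0.596). Acly had 2976, 2266 and 494 CPM at 22 °C and 7991, 4245 and 4483 CPM at 10 °C, with a change of 1.54 (SE 0.625, adjusted p 0.165). The other called genes changed by 1.45 (Mid1ip1), 1.46 (Acss2), 1.3 (Me1) and 1.01 (Acacb) on the log2 scale, and those not called stood at 1.14 (Scd2) and 0.87 (Acaca). Whether the change of any gene differed between iBAT and ingSAT was tested as an interaction, and the lowest adjusted p over the 10 was 0.579. Of all genes, 0.0691% differed at an adjusted p under 0.05.

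In this depot 22 °C replicate 3 was again the lowest control for 9 of the 10 genes, Scd1 excepted, and 10 °C replicate 1 the highest cold library for all 10. Without 10 °C replicate 1 the calls dropped to 4, those of Scd1, Me1, Mid1ip1 and Thrsp, with Acly at 1.19, Acss2 at 1.14 and Acacb at 0.91 on the log2 scale and not called. Acly was also lost without 10 °C replicate 3 (1.72) or 22 °C replicate 2 (1.68), and so was Scd1 (1.04 and 0.89). Scd2 gained a call without 10 °C replicate 2 (1.38), 22 °C replicate 1 (1.48) or 22 °C replicate 3 (0.78). The 7 brown adipocyte markers summed to 154 to 209.5 CPM at 22 °C and 2358 to 3025 CPM at 10 °C, with 6 of 6 tested called higher. Their part in the changes was not tested. The 8 adipocyte markers, none at 0, summed to 39004 to 43078 and 34035 to 42309.5 CPM.

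In pgVAT, 7 of the 10 genes were called higher at 10 °C and 0 lower, beside 4.46% of all genes called higher and 3.47% lower. By edgeR's quasi-likelihood test 0 of the 10 were under an adjusted p of 0.05 (lowest 0.593), as were 0% of all genes, although 7 of the 10 had an unadjusted p under 0.05 and DESeq2 called 8. Acly had 725, 408 and 639 CPM at 22 °C and 2527, 2872 and 3519 CPM at 10 °C, 5.03-fold in the fit (log2 fold change 2.33, SE 0.436). Acss2 had 134, 98.0 and 112 CPM at 22 °C and 314, 613 and 401 CPM at 10 °C (change 1.95, SE 0.350). For both genes the cold libraries lay far above the controls. Mid1ip1 had 68.7, 58.8 and 53.4 CPM at 22 °C and 166, 95.8 and 346 CPM at 10 °C (change 1.75, SE 0.470), with replicate 3 the highest, and without it the change was 1.12.

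These 3 calls (Acly, Acss2 and Mid1ip1) held with any single library left out, and the remaining 4 did not. Fasn had 5211, 3224 and 3929 CPM at 22 °C and 6835, 20769 and 11557 CPM at 10 °C (change 1.66), and Thrsp had 1097, 1161 and 889 and 1786, 3505 and 1499 CPM (change 1.11). Replicate 2 was the highest cold library for both. Acaca changed by 1.32 and Scd2 by 1.32. Without 10 °C replicate 2, Acaca was 0.75 and Thrsp 0.64, neither called, and without 10 °C replicate 3 Scd2 was 0.90 and not called. Leaving out 22 °C replicate 1, 2 or 3 brought the calls to 4, 3 and 3. In these fits Acaca (1.52, 1.22 and 1.25), Fasn (1.87, 1.51 and 1.64) and Thrsp (1.14, 1.18 and 1.01) each lost the call, and Scd2 lost it without replicate 2 (1.34) or 3 (1.03).

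Scd1 (0.31), Acacb (0.64) and Me1 (0.80) were not called in pgVAT. The cold libraries differed in make-up: the 8 adipocyte markers, none at 0, summed to 21080.4, 56463 and 16614 CPM in 10 °C replicates 1 to 3 and to 38982, 52433 and 34183 CPM at 22 °C, and the 6 epididymis markers to 20096, 3.66 and 25328 CPM and 2583, 893 and 735 CPM. Replicate 2, richest in adipocyte markers and poorest in epididymis markers, was also the highest cold library for Acaca, Fasn, Scd1, Acss2, Acacb, Thrsp and Me1. The 22 °C libraries differed in make-up too. The 7 brown adipocyte markers summed to 18.1 to 491 CPM at 22 °C and 42.5 to 77.3 CPM at 10 °C, with 0 of 6 tested called. Among these markers Ucp1 stood at 308 CPM in the highest control, beside a control median of 3.74 CPM. The part of tissue make-up was not tested. The interaction test detected a difference of iBAT or ingSAT from pgVAT for 0 of the 10 genes (lowest adjusted p 0.281). Standard errors of these differences ran from 0.471 to 0.769 on the log2 scale. The lowest adjusted p was that of Me1 in iBAT minus pgVAT, a difference of 1.32 (SE 0.573). Of all genes, 0.407% differed between iBAT and pgVAT and 0.159% between ingSAT and pgVAT. With such errors the test cannot show that the depots changed alike.

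**Figure D3:**
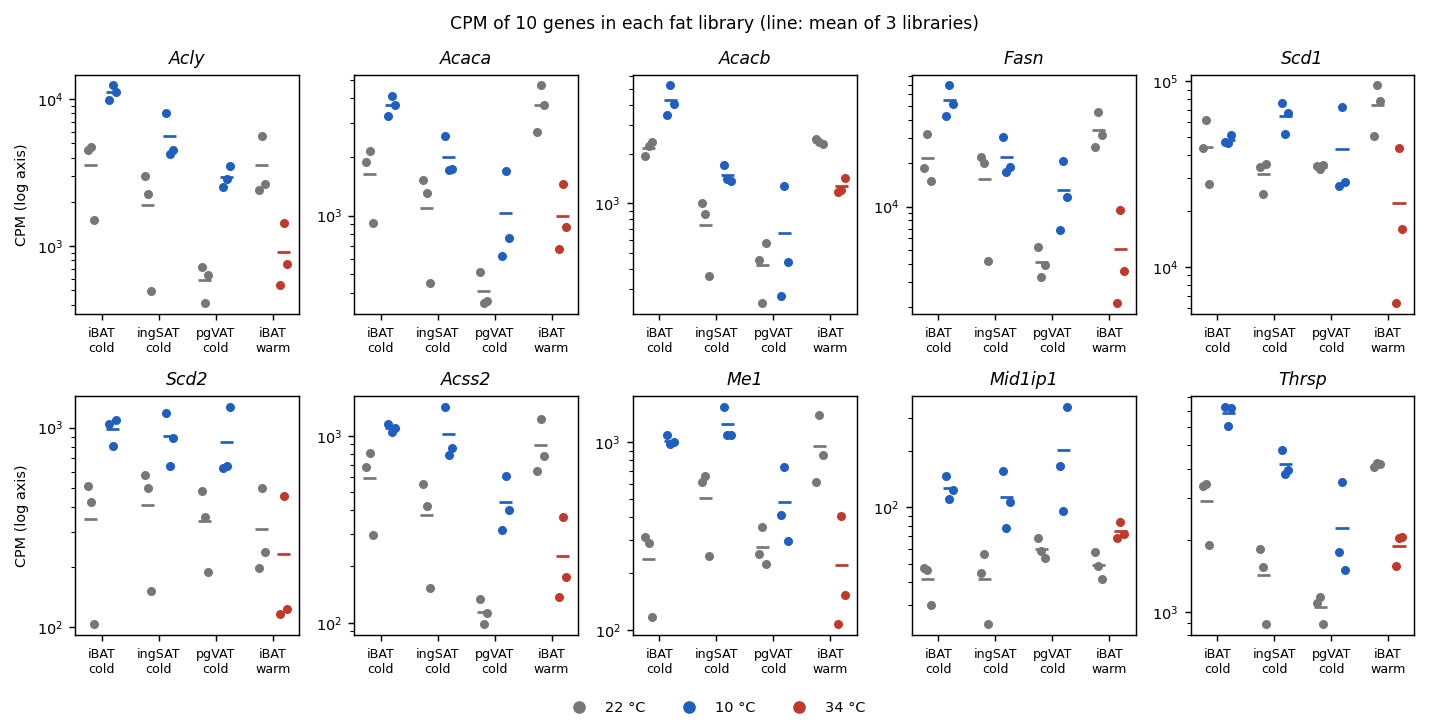
CPM (log axis) of each of the 10 genes in every fat library, by depot and experiment, with a line at the mean of 3 libraries; colours mark 22 °C, 10 °C and 34 °C. In cold iBAT the groups separate for all genes but Scd1 (22 °C mean 44392, 10 °C mean 48385), and in warm iBAT the 34 °C points lie below those at 22 °C for 8 genes and above for Mid1ip1.

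In iBAT at 34 °C, 8 of the 10 genes were called lower and 1 higher, beside 7.19% of all genes called lower and 12.2% higher, and 8 were under an adjusted p of 0.05, against 28.9% of all genes. Fasn was 6.74-fold lower, Me1 4.28-fold, and Acss2, Acly and Acaca 3.91-, 3.90- and 3.69-fold. The median log2 fold change of the 10 was −1.82 (0.02 over all genes), and their share of all counts was 11.3% ± 2.99 (SD, n = 3) at 22 °C and 3.55% ± 2.57 at 34 °C.

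Acly had 2422, 5569.9 and 2651 CPM at 22 °C and 546, 1426 and 759.5 CPM at 34 °C, and no warm library reached a control (log2 fold change −1.96, SE 0.442, adjusted p 0.0173, quasi-likelihood test of edgeR, adjusted after Benjamini-Hochberg). Acss2 had 649, 1232 and 782 CPM at 22 °C and 137, 369.6 and 175 CPM at 34 °C (change −1.97, SE 0.406, adjusted p 0.0131). Replicate 2 was the highest library at each temperature for both genes, and also for Acaca, Fasn, Scd1, Scd2 and Me1. Acaca had 2678, 4665 and 3712 CPM at 22 °C and 669.7, 1455 and 868 CPM at 34 °C (change −1.89, SE 0.320, adjusted p 0.00682). Acacb had 2471, 2372 and 2298 CPM at 22 °C and 1178, 1209.7 and 1432 CPM at 34 °C, with little spread in either group (change −0.90, SE 0.111, adjusted p 0.00263). Fasn had 25869.8, 45199.5 and 31283 CPM at 22 °C and 2129.8, 9475 and 3570.3 CPM at 34 °C. The warm libraries differed several-fold among themselves, yet all stayed below the lowest control, and without 34 °C replicate 2 the change was −3.60 (main value −2.75, SE 0.545, adjusted p 0.0114).

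Me1 had 610.2, 1393 and 852 CPM at 22 °C and 107, 405 and 155 CPM at 34 °C (log2 fold change −2.10, SE 0.527, adjusted p 0.0246, same test), and its value without 34 °C replicate 2 was −2.88. Thrsp had 4074, 4211 and 4173 CPM at 22 °C and 1561, 2049.6 and 2062 CPM at 34 °C, with controls in a narrow range (change −1.14, SE 0.132, adjusted p 0.00217). Its paralog went the other way. Mid1ip1 had 58.0, 48.7 and 41.4 CPM at 22 °C and 68.6, 83.9 and 71.8 CPM at 34 °C, all warm libraries above all controls (change 0.60, SE 0.139, adjusted p 0.0190). Its fold lay near the limit of 1.5, and without 22 °C replicate 3 (0.49) or 34 °C replicate 2 (0.49) it was not called. With library size as the only scaling, all 10 genes here and the 9 called genes of cold iBAT kept their direction. Scd1 in cold iBAT did not. Its share of all counts was 4.81%, 6.36% and 2.88% at 22 °C and 4.68%, 4.19% and 4.88% at 10 °C. The median of all genes moved by 0.27 in warm and −0.16 in cold iBAT.

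Scd1 had 50954, 94924 and 78088 CPM at 22 °C and 6374, 43873 and 16019 CPM at 34 °C, groups that did not overlap (log2 fold change −1.76, SE 0.632, adjusted p 0.0735, same test). Its call was lost without 22 °C replicate 2 (−1.55), 22 °C replicate 3 (−1.72) or 34 °C replicate 3 (−1.58), and without 34 °C replicate 2 the change was −2.75. Scd2, with 198, 495 and 239 CPM at 22 °C and 115, 453 and 123 CPM at 34 °C, was not called (change −0.43) and overlapped through replicate 2 of the warm group, without which it was called (−1.40). The difference between Scd1 and Scd2 was not tested. The 7 brown adipocyte markers, none at 0, summed to 10821 to 14491 CPM at 22 °C and 5906 to 7289 CPM at 34 °C, without overlap, with 0 called higher and 3 lower. The 8 adipocyte markers, none at 0, summed to 19475 to 22270.5 CPM at 22 °C and 17658 to 20624 CPM at 34 °C, with 1 called higher and 0 lower. The 8 skeletal muscle markers summed to 3.94, 6221 and 9.80 CPM in 22 °C replicates 1 to 3 and to 1372 to 4973 CPM at 34 °C. The part of these markers' cells in the changes was not tested.

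Set side by side within iBAT, where each temperature had its own controls, vendor and library kit, 7 genes (Acly, Acaca, Acacb, Fasn, Acss2, Me1 and Thrsp) were called higher at 10 °C and lower at 34 °C. Mid1ip1 was called higher at both, Scd2 at 10 °C alone and Scd1 at 34 °C alone. The temperatures sit in different tables, so the difference between them was not tested.

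The change at 34 °C was compared between tissues of the same table by an interaction of tissue and temperature in edgeR's quasi-likelihood test, adjusted by Benjamini-Hochberg over all genes. Against liver, where 9.1% of all genes differed at an adjusted p under 0.05, the change in iBAT was lower for Fasn (−3.43, SE 0.799, adjusted p 0.0218, log2 scale), Acss2 (−2.43, SE 0.580, adjusted p 0.0246), Acly (−2.25, SE 0.633, adjusted p 0.0468) and Acaca (−2.14, SE 0.439, adjusted p 0.0126). In liver these 4 genes had values above 0 in their own fits, from 0.27 to 0.68 on the log2 scale, and were not called. Against quadriceps, where 10.9% of all genes differed, the change in iBAT was lower for Me1 (−2.19, SE 0.504, adjusted p 0.0138), Acss2 (−1.83, SE 0.392, adjusted p 0.00924) and Acacb (−0.92, SE 0.218, adjusted p 0.0159). Acss2 was in both sets. The comparison with quadriceps used all 6 of its 22 °C controls, which mix those of the cold experiment with 3 others. For Fasn, Scd1 and Thrsp, which were called lower in both iBAT and quadriceps, the differences were −0.95 (SE 0.910), 0.34 (1.15) and −0.40 (0.453), with adjusted p from 0.542 to 0.884. With single libraries left out, an alternative chosen after seeing the data, Acaca differed between iBAT and liver in 12 of 12 fits (−2.51 to −1.92), Fasn in 10 (−4.25 to −2.62), Acss2 in 8 (−2.96 to −1.94) and Acly in 2 (−2.73 to −1.71). Without liver 22 °C replicate 1 or 3, Acaca was the only gene left, without iBAT 34 °C replicate 1 or 3 there were 2 genes, and without iBAT 34 °C replicate 2 or liver 34 °C replicate 1 there were 6. Against quadriceps Acss2 and Me1 differed in 15 of 15 fits and Acacb in 14 (−1.02 to −0.81), the exception being the fit without iBAT 34 °C replicate 1.

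In quadriceps, 7 of the 10 genes were called higher at 10 °C and 0 lower, beside 2.7% of all genes called higher and 0.642% lower, and 4 (Acly, Acaca, Fasn and Thrsp) were under an adjusted p of 0.05, against 0.338% of all genes. Acly was 6.60-fold higher, Fasn 5.54-fold and Thrsp 4.57-fold. In those 4 genes the lowest 10 °C library exceeded the highest 22 °C library. Acacb, Me1 and Mid1ip1 were not called, at −0.05, 0.24 and −0.06 on the log2 scale. These values rest on all 6 controls. Against the 3 controls of the first header set alone the same 7 genes were called, and 0 were under an adjusted p of 0.05 by edgeR's quasi-likelihood test (lowest 0.0560).

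Acly had 23.6 to 55.9 CPM (median 38.4, n = 6) at 22 °C and 324, 336 and 144 CPM in the 10 °C replicates 1 to 3 (log2 fold change 2.72, SE 0.286, adjusted p 0.00539, quasi-likelihood test of edgeR, adjusted after Benjamini-Hochberg). Fasn had 75.1 to 400.2 CPM (median 203, n = 6) at 22 °C and 1514, 1539 and 615 CPM at 10 °C (change 2.47, SE 0.427, adjusted p 0.0395). In both, and in the other called genes, 10 °C replicate 3 was the lowest cold library. Acaca had 26.7 to 70.9 CPM (median 45.8, n = 6) at 22 °C and 233, 217 and 85.5 CPM at 10 °C (change 1.93, SE 0.323, adjusted p 0.0343), and Thrsp had 20.4 to 55.6 CPM (median 34.0, n = 6) at 22 °C and 211, 213 and 80.9 CPM at 10 °C (change 2.19, SE 0.318, adjusted p 0.0237). Scd1 had 136 to 1228 CPM (median 402, n = 6) at 22 °C and 2492, 2666 and 753 CPM at 10 °C, with replicate 3 inside the control range (change 1.9, SE 0.608, adjusted p 0.244).

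Scd2 changed by 0.73 (SE 0.212) and Acss2 by 0.64 (SE 0.135), and both overlapped the controls through 10 °C replicate 3. Acss2 lost its call without 10 °C replicate 1 (0.57) or 2 (0.56). Against the 3 controls of the first header set alone, Acly changed by 3.02, Acaca by 2.38, Fasn by 3.17, Scd1 by 3.23, Thrsp by 2.52, Scd2 by 0.83 and Acss2 by 0.64. In that fit Mid1ip1 turned from −0.06 to 0.25.

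Adipocyte markers moved in the same libraries. The 8 of them, none at 0, summed to 847 to 1422 CPM at 22 °C and to 1836, 1944 and 1009 CPM in 10 °C replicates 1 to 3, and 6 were called higher. Ucp1, the uncoupling protein of brown fat, was at 0.0486 to 6.96 CPM at 22 °C and at 27.8 to 121 CPM at 10 °C, and Elovl3, an elongase abundant in brown fat, was at 0 to 0.179 and 3.31 to 13.9 CPM, so in both every cold library, replicate 3 included, exceeded every control. The 7 brown adipocyte markers together overlapped, at 514 to 724 CPM at 22 °C and 539 to 764 CPM at 10 °C. Of 6 tested, 3 were called higher (Ucp1, Elovl3 and Cidea) and 0 lower. Cox7a1 (−0.14 on the log2 scale), Cox8b (−0.11) and Ppargc1a (0.13) were not called, and Zic1 was not tested. The 5 pancreas acinar markers summed to 0 to 1587 CPM at 22 °C, highest in replicate 1, and to 0.0167 to 0.0536 CPM at 10 °C. Of 5 tested, 4 were called lower. The 6 epididymis markers summed to 0 to 0.125 CPM at 22 °C and to 161, 0.0668 and 0 CPM in 10 °C replicates 1 to 3, with 2 of 2 tested called higher. Replicate 3 lay inside the control range of adipocyte marker CPM, and in it Acly (144 CPM), Acaca, Fasn and Thrsp still lay above every control. The part of fat RNA in the changes was not tested.

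**Figure D4:**
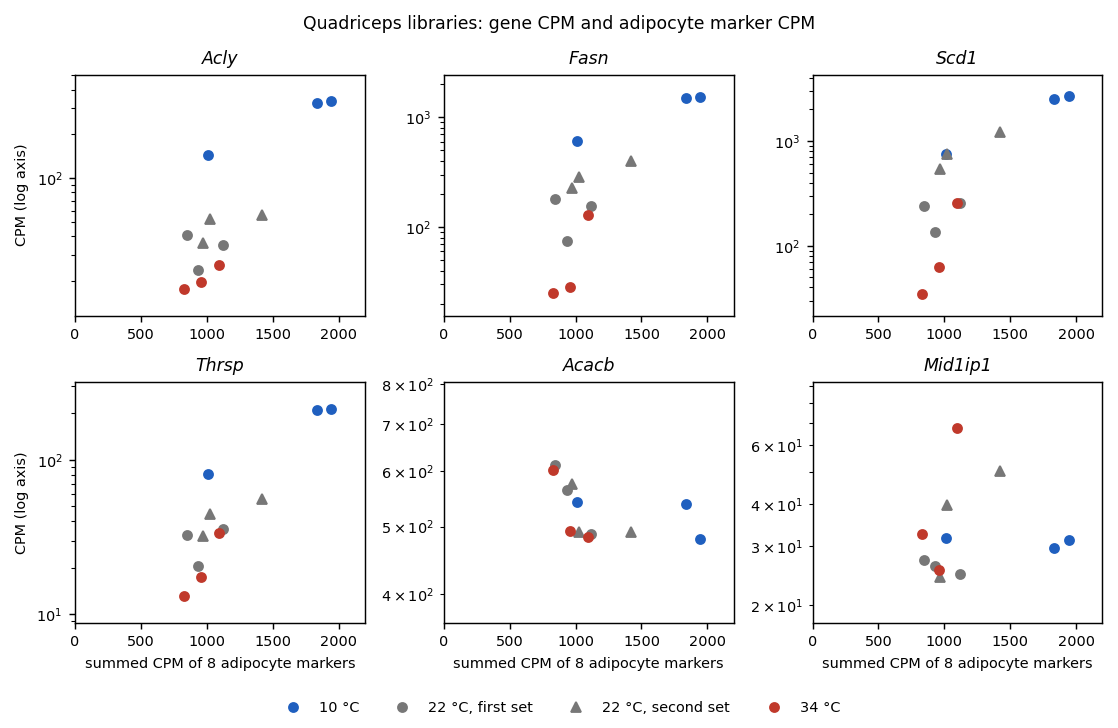
CPM of single genes (vertical, log axis) against the summed CPM of 8 adipocyte markers (horizontal) in each quadriceps library, by temperature and, at 22 °C, by header set. At 10 °C, replicate 3 (1009 marker CPM) lies within the 22 °C range of 847 to 1422 marker CPM but above all controls for Acly, Fasn and Thrsp, as it also does for Ucp1 (lowest cold library 27.8 CPM, highest control 6.96 CPM), which is not drawn.

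At 34 °C, 5 of the 10 genes were called lower in quadriceps and 0 higher, beside 0.836% of all genes called lower and 0.409% higher. By edgeR's quasi-likelihood test 0 were under an adjusted p of 0.05 (lowest 0.660), as were 0% of all genes, while the same 5 had an unadjusted p under 0.05 and DESeq2 called 5. No gene had groups that did not overlap. Scd1 had 133 to 1190.0 CPM (median 392.4, n = 6) at 22 °C and 62.6, 34.9 and 255 CPM in 34 °C replicates 1 to 3 (log2 fold change −2.12, SE 0.788). Fasn had 73.0 to 388 CPM (median 197, n = 6) at 22 °C and 28.3, 24.9 and 128 CPM at 34 °C (change −1.83, SE 0.605). For both genes warm replicate 3 stood within the controls, and without it the changes were −3.39 and −3.01. Acly changed by −0.92, Acaca by −0.75 and Thrsp by −0.75.

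Of these calls, those of Acly and Fasn were kept with any single library left out. Without 34 °C replicate 1 the changes of Scd1 (−1.83), Acaca (−0.62) and Thrsp (−0.62) were not called while Scd2 (−0.61) was, which left 3 calls, and without 34 °C replicate 2 Scd1 (−1.69), Acaca (−0.57) and Thrsp (−0.49) were lost, which left 2. Without 22 °C replicate 4 or 5, Acaca (−0.60 and −0.69) and Thrsp (−0.60 and −0.68) were lost, which left 3, and without 22 °C replicate 2 Thrsp was lost (−0.75). Against the 3 controls of the second header set alone the same 5 were called (Acly −1.16, Acaca −1.09, Fasn −2.30, Scd1 −2.80 and Thrsp −1.01). Acacb, Acss2, Me1, Mid1ip1 and Scd2, at 0.01, −0.15, 0.07, 0.43 and −0.36 on the log2 scale, were not called. The adipocyte markers summed to 819 to 1378 CPM at 22 °C and 828.8 to 1095 CPM at 34 °C, with 1 of 8 called lower and 0 higher. The 5 pancreas acinar markers summed to 0 to 1536 CPM at 22 °C, highest in replicate 1, and to 0 to 0.180 CPM at 34 °C, with 2 called lower. The part of either set in the changes was not tested.

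In ileum at 10 °C, 3 of the 10 genes were called higher and 0 lower, beside 1.44% of all genes called higher and 1.26% lower. By edgeR's quasi-likelihood test 0 were under an adjusted p of 0.05 (lowest 0.150), against 0.0639% of all genes, 3 had an unadjusted p under 0.05 and DESeq2 called 3. Scd1 had 285, 90.0 and 177 CPM at 22 °C and 1171, 688 and 339 CPM at 10 °C, without overlap (log2 fold change 1.99, SE 0.523). Thrsp had 13.1, 2.67 and 4.84 CPM at 22 °C and 60.8, 34.8 and 12.7 CPM at 10 °C (change 2.42, SE 0.692). Without 10 °C replicate 1 the change of Thrsp was 1.80, and without 22 °C replicate 1 it was 3.26, both called. Cold replicate 3 lay just below the highest control for Thrsp, and it was the lowest cold library for all 10 genes. Me1 changed by 0.98, a call that was lost without 10 °C replicate 1 (0.59), 10 °C replicate 2 (1.06), 22 °C replicate 2 (0.85) or 22 °C replicate 3 (0.77). Without 22 °C replicate 1 the calls rose to 5, with Fasn (1.13) and Scd2 (0.97) added, and Fasn was also called without 10 °C replicate 3 (1.06).

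The 8 adipocyte markers, none at 0, summed to 182, 82.0 and 163 CPM in the ileum libraries of 22 °C and to 471, 306 and 151 CPM at 10 °C, and Cidec, Fabp4 and Retn were called higher, so the order of the cold libraries was the same for these markers as for Scd1, Thrsp and Me1. The 5 enterocyte markers, none at 0, summed to 8956 to 10342 CPM at 22 °C and 14552 to 16698 CPM at 10 °C, without overlap, with 2 called higher and 0 lower. The part of either set in the rise was not tested. The other genes, at −0.25 (Acacb) to 0.76 (Fasn) on the log2 scale, were not called. At 34 °C 0 of the 10 were called in ileum by edgeR's quasi-likelihood test, 0 had an unadjusted p under 0.05 and DESeq2 called 0, beside 1.57% of all genes called higher, 1.26% lower and 0% under an adjusted p of 0.05. Log2 fold changes ran from −0.95 (Scd1) to 0.02 (Me1). Scd1 had 774, 341 and 149 CPM at 22 °C and 99.0, 378 and 178 CPM at 34 °C there, overlapping groups.

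In liver, a classical site of the pathway, 1 gene was called at each temperature. At 10 °C 1 of the 10 genes, Mid1ip1, was called higher and 0 lower, beside 0.74% of all genes called higher and 2.54% lower. By edgeR's quasi-likelihood test 0 of the 10 were under an adjusted p of 0.05 (lowest 0.119), as were 0% of all genes, 2 had an unadjusted p under 0.05 and DESeq2 called 1. Mid1ip1 had 36.6, 37.6 and 55.2 CPM at 22 °C and 64.9, 59.7 and 73.0 CPM at 10 °C, without overlap (log2 fold change 0.61, SE 0.153). Its fold was near the limit of 1.5, and the call was lost without 10 °C replicate 3 (0.53), 22 °C replicate 1 (0.50) or 22 °C replicate 2 (0.52). Fasn had 838, 750.1 and 1051 CPM at 22 °C and 874, 905 and 822 CPM at 10 °C, overlapping groups with a change of −0.02. Scd1, at 0.44 on the log2 scale, was called without 10 °C replicate 3 (0.65) or 22 °C replicate 3 (0.60), and Me1, at −0.48, was called lower without 10 °C replicate 2 (−0.78) or 22 °C replicate 2 (−0.61). Acly, Acaca, Acacb, Scd2, Acss2 and Thrsp stood at −0.01, −0.15, −0.33, −0.30, 0.08 and −0.06.

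At 34 °C, 1 of the 10 genes in liver, Scd1, was called higher and 0 lower, beside 1.77% of all genes called higher and 1.61% lower, and by edgeR's quasi-likelihood test 0 were under an adjusted p of 0.05 (lowest 0.227), against 0.385% of all genes, 1 had an unadjusted p under 0.05 and DESeq2 called 2. Its libraries held 5719.7, 5971 and 5411 CPM at 22 °C and 7514, 17076 and 8712 CPM at 34 °C (log2 fold change 0.96, SE 0.269). Warm replicate 2 was the highest of all liver libraries of this experiment for all 10 genes, Fasn standing at 1575 CPM in it and at 418 and 548 CPM in the other warm libraries. Without it the change of Scd1 was 0.51 and 0 genes were called. Without 34 °C replicate 1 the calls rose to 6, with Acacb (0.77), Fasn (1.0), Scd2 (0.85), Acss2 (0.69) and Thrsp (0.74) added, and without 34 °C replicate 3 to 2, with Scd2 added (0.81).

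In spleen, 2 of the 10 genes were called higher at 10 °C and 0 lower, beside 0.638% of all genes called higher and 2.04% lower. By edgeR's quasi-likelihood test 0 were under an adjusted p of 0.05 (lowest 0.485), against 0.0779% of all genes, 3 had an unadjusted p under 0.05 and DESeq2 called 1. Me1 had 4.09, 4.62 and 2.70 CPM at 22 °C and 8.88, 4.92 and 8.16 CPM at 10 °C, without overlap (log2 fold change 0.94, SE 0.282). Thrsp had 6.04, 5.47 and 2.48 CPM at 22 °C and 14.4, 4.46 and 11.8 CPM at 10 °C, and replicate 2 of the cold group lay within the controls (change 1.12, SE 0.452). Thrsp lost its call without 10 °C replicate 1 (0.78), 10 °C replicate 3 (1.0), 22 °C replicate 2 (1.24) or 22 °C replicate 3 (0.82), each of which left 1 call. The 8 adipocyte markers, none at 0, summed to 84.2 to 128 CPM at 22 °C and 82.8 to 168 CPM at 10 °C, and the 5 pancreas acinar markers to 0.692 to 1329.7 and 1.51 to 2690.5 CPM. Their part was not tested. Scd1 had 533, 484 and 453 CPM at 22 °C and 713, 536 and 677 CPM at 10 °C, without overlap but under the fold limit (0.39 on the log2 scale), and the remaining genes stood at −0.20 (Mid1ip1) to 0.26 (Fasn).

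In brain with all libraries, 0 of the 10 genes were called at 10 °C by edgeR's quasi-likelihood test and 0 had an unadjusted p under 0.05, while DESeq2 called 1. Of all genes, 0.27% were called higher, 2.45% lower and 0% stood under an adjusted p of 0.05. Scd1 had 273, 5867 and 279 CPM in 22 °C replicates 1 to 3 and 278, 275 and 269.9 CPM at 10 °C, and Thrsp had 25, 243 and 22.7 and 22.2, 21.1 and 21.7 CPM. Replicate 2, the library with hepatocyte markers, was the only one to stand apart, although for Acss2 and Thrsp every 10 °C library also lay below the other controls. Log2 fold changes of Acacb, Scd1 and Thrsp were −2.80, −2.96 and −2.16 with it and −0.11, −0.01 and −0.13 without it, and over the 10 genes the values without it ran from −0.16 (Mid1ip1) to 0.05 (Acaca), 0 of them called. Without 22 °C replicate 1 or 3 the same 3 genes were called lower (Acacb −3.32 and −3.31, Scd1 −3.48 and −3.48, Thrsp −2.61 and −2.62).

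In the other neural comparisons 0 of the 10 genes were called. In brain at 34 °C 0 were called by edgeR's quasi-likelihood test or DESeq2, 1 (Scd1) had an unadjusted p under 0.05, and the log2 fold changes ran from −0.14 (Scd1) to 0.01 (Thrsp), with Scd1 and Acss2 below every control in every warm library, beside 0.0429% of all genes called higher, 0.15% lower and 0% under an adjusted p of 0.05. In hypothalamus at 10 °C 0 were called by either tool, 0 had an unadjusted p under 0.05, and the changes ran from −0.08 (Scd2) to 0.19 (Thrsp), beside 0.399% of all genes called higher, 0.179% lower and 0% under an adjusted p of 0.05. In spinal cord, with 5 single mice a group, 0 were called by either tool, 0 had an unadjusted p under 0.05, and the changes ran from −0.10 (Scd2) to 0.15 (Fasn), beside 0.181% of all genes called higher, 0.0904% lower and 0.00695% under an adjusted p of 0.05. Scd2, most abundant in that tissue, had 4197, 4440.1, 4334, 4688 and 4162 CPM at 22 °C and 4046, 4312, 4331, 3489 and 4214 CPM at 10 °C, overlapping groups.

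Bone marrow, with 6 single mice a group, had 8 of the 10 genes above the limit on low counts. Me1 and Thrsp were under it and were not tested. By edgeR's quasi-likelihood test and by DESeq2 0 were called, since 0 changed more than 1.5-fold. Scd1 alone was under an adjusted p of 0.05, with 75.6 to 110.1 CPM (median 89.1, n = 6) at 22 °C and 98.9 to 129 CPM (median 111, n = 6) at 10 °C, groups that overlapped (log2 fold change 0.29, SE 0.0847, adjusted p 0.0261, Benjamini-Hochberg adjustment). Of all genes in bone marrow, 19% were under an adjusted p of 0.05, 0.647% were called higher and 0.647% lower. An unadjusted p under 0.05 was also given to Acly (−0.10) and Scd2 (−0.18).

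The wider pathway was read from 62 other genes in 6 lists: regulators of lipogenic transcription, supply of citrate, acetyl-CoA and NADPH, elongation and desaturation, triglyceride synthesis, glucose entry, and control of malonyl-CoA. Against the shares of all genes given above, in iBAT at 10 °C 20 of the 59 tested were called higher and 1 lower, in ingSAT 25 and 3 of 60, in pgVAT 9 and 1 of 61, and in quadriceps 15 and 1 of 57. In iBAT at 34 °C 2 of the 57 tested were higher and 23 lower, and in quadriceps 0 and 5 of 55. Ileum, liver and spleen at 10 °C had 1 and 0 of 59, 1 and 1 of 57, and 0 and 1 of 56, brain had 0 and 3 of 60 with all libraries, and ileum and liver at 34 °C had 0 and 1 of 57 and 4 and 1 of 56. Spinal cord, hypothalamus, bone marrow, and brain at 34 °C had 0 in either direction by edgeR's quasi-likelihood test.

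Among the elongases, Elovl3, which makes very long saturated chains in brown fat and skin, went from 66.6 ± 16.2 to 757 ± 31.3 CPM (SD, n = 3) in iBAT at 10 °C (log2 fold change 3.50, adjusted p 0.000146, quasi-likelihood test of edgeR, adjusted after Benjamini-Hochberg) and from 84.4 ± 26.4 to 1.51 ± 1.64 CPM at 34 °C (change −5.78, adjusted p 0.00269). Elovl6, which lengthens palmitate to stearate, changed by 1.56 in iBAT, 2.38 in ingSAT, 2.07 in pgVAT and 3.33 in quadriceps at 10 °C and by −2.40 in iBAT at 34 °C, all called. Slc25a1, the mitochondrial citrate carrier upstream of Acly, changed by 1.33 in iBAT, 1.23 in pgVAT and 1.91 in quadriceps at 10 °C and by −1.88 in iBAT at 34 °C. Pgd, an NADPH-making enzyme of the pentose phosphate pathway, changed by 1.72 and −1.72 in iBAT at 10 °C and 34 °C. Agpat2, an acyltransferase of triglyceride synthesis, changed by 1.57 in ingSAT, 1.14 in pgVAT and 2.11 in quadriceps at 10 °C, and by −2.41 in iBAT and −1.19 in quadriceps at 34 °C. Insig1, which holds SREBP precursors in the endoplasmic reticulum, changed by 1.83 in ingSAT, 2.35 in pgVAT and 0.64 in liver at 10 °C. The values of pgVAT, of quadriceps at 34 °C and of Insig1 in liver, and those of Slc25a1 and Agpat2 in quadriceps at 10 °C, passed the unadjusted limit only.

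By list, the supply of citrate, acetyl-CoA and NADPH had 6 higher and 0 lower of 15 tested in iBAT and 11 higher and 0 lower of 15 tested in ingSAT at 10 °C, and 1 higher and 8 lower of 15 tested in iBAT at 34 °C. In pgVAT and quadriceps at 10 °C this list had 2 and 4 higher of 15 tested, and 0 lower. Elongation and desaturation had 4 higher and 0 lower of 10 tested in iBAT, 5 higher and 0 lower of 11 tested in ingSAT and 7 higher and 0 lower of 9 tested in quadriceps at 10 °C, and 1 higher and 7 lower of 10 tested in iBAT at 34 °C. In pgVAT at 10 °C it had 3 higher and 0 lower of 11 tested. Triglyceride synthesis had 2 higher and 0 lower of 6 tested in iBAT at 10 °C and 0 higher and 4 lower of 6 tested at 34 °C. In ingSAT, pgVAT and quadriceps at 10 °C it had 1, 1 and 2 higher of 6 tested, and 0 lower. The regulators of lipogenic transcription had 4 higher and 1 lower of 15 tested in iBAT at 10 °C, with a median log2 fold change of 0.20, and 0 higher and 2 lower of 15 tested at 34 °C, with a median of −0.10. In ingSAT at 10 °C they had 3 higher and 2 lower of 15 tested, with a median of −0.09. At 10 °C glucose entry had 3 higher of 6 tested in iBAT and in ingSAT, 1 of 8 in pgVAT and 0 of 6 in quadriceps. Control of malonyl-CoA had 1 higher of 7 tested in iBAT and 2 higher and 1 lower of 7 in ingSAT. In pgVAT it had 0 called of 6 tested, and in quadriceps 0 higher and 1 lower of 6.

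The genes whose pattern over the 16 group means of the table of 8 cold tissues (at 22 °C and 10 °C) was most like that of Fasn, by Pearson correlation of mean log2 CPM over 13691 genes, were Acaca (r 0.993), Aifm2 (0.979), Pex13 (0.978), Acer2 (0.971) and Uck1 (0.970). For Thrsp they were Scd1 (r 0.973), Pex19 (0.968), Me1 (0.965), Acss3 (0.965) and Hibch (0.963). Group means of 1 tissue share libraries of the same kit and much of their level, so these values are descriptions. Without brain 22 °C replicate 2, an alternative chosen after seeing the data, Acaca (0.993) and Scd1 (0.971) remained the first.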

How the data were processed

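RNA from the tissues named above was sequenced by the study, either with the NEBNext Ultra kit or as stranded TruSeq libraries with reads of 50 bases. The values used are gene counts as the authors deposited them, made, per the submitters' processing notes, with STAR 2.5.3a, Picard 1.141 and HTSeq 0.6p1 on mm10 (the methods name later releases of STAR and HTSeq). The study's own group means served only to tell which 3 of the 6 quadriceps controls are those of the cold experiment (1948 of 1999 genes matched within 0.01, against 14 for the next best 3). Groups were read from the sample titles. For each tissue, genes whose average log2 CPM exceeded 0 were tested with edgeR 4.0.16 (TMM scaling, quasi-likelihood test, R 4.3.3), and p-values were adjusted by Benjamini-Hochberg over all genes tested. Differences between tissues of 1 table were interaction terms in the same test. CPM are TMM-scaled, and levels per kb use library size and the length of the merged exons.

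The 10 genes, the 62 other pathway genes and the marker lists were chosen with earlier results of these data known. All 10 genes are named in each comparison, other pathway genes where called in at least 3 of 16 comparisons (at most 6 per comparison by size), and the 5 most alike genes for Thrsp and Fasn. Alternatives were edgeR's exact test, DESeq2 1.42.0, library size alone, other filters, an adjusted call, each library left out, a replicate block and the header set of quadriceps. Leaving out libraries from the interaction, the header set there and the likeness without 1 brain library were added after seeing the data. The fit was tested on simulated data. Totals per library limit precision as given above.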

Additional observations from a re-analysis of the deposited data

Results flagged for a closer look

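In spinal cord at 10 °C the Scd1 level of replicate 4, 611 CPM, stood apart from the other 4 libraries of its group (803 to 873 CPM), with a gap of 0.731 of the whole range against a critical value of 0.710. It was 1 of 50 gene and group combinations examined for a library apart, and chance gives about 1 in 20.

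The temperature effect was compared between tissues, by edgeR's quasi-likelihood interaction test, over the 10 genes and 7 pairs of tissues, some at 10 °C and some at 34 °C. It differed in 7 tests, which fell in 2 pairs at 34 °C. In the other pairs 0.0153% to 0.407% of all genes differed. Relative to liver, where 9.1% of all genes differed, the log2 change in iBAT differed by −2.14 for Acaca, −2.25 for Acly, −2.43 for Acss2 and −3.43 for Fasn. Relative to quadriceps with all 6 controls, where 10.9% of all genes differed, it differed by −0.92 for Acacb, −1.83 for Acss2 and −2.19 for Me1.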

How the results depend on the processing

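Of the 51 calls of single genes, 32 were kept with any single library left out and 19 were lost at least once, and 0 reversed under any alternative. DESeq2 kept 50 of 51, edgeR's exact test 51, library size alone 48, filterByExpr 50 and no filter 50. With an adjusted p under 0.05 as the call, the number of genes called at 10 °C went from 7 to 1 in ingSAT, 7 to 0 in pgVAT, 7 to 4 in quadriceps, 3 to 0 in ileum, 1 to 0 in liver, 2 to 0 in spleen and 0 to 1 in bone marrow, and at 34 °C from 5 to 0 in quadriceps and 1 to 0 in liver. DESeq2 gave 1 in brain and 1 in spleen at 10 °C and 2 in liver at 34 °C, the exact test gave 3 in brain at 10 °C, and library size alone gave 0 in liver at 10 °C and 3 in quadriceps at 34 °C. The causes were not tested.

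With each library left out, the genes called at 10 °C numbered 8 to 9 in iBAT, 4 to 8 in ingSAT, 3 to 7 in pgVAT, 6 to 7 in quadriceps, 2 to 5 in ileum, 0 to 2 in liver, 1 to 2 in spleen, 0 to 3 in brain and 0 in bone marrow, spinal cord and hypothalamus, and at 34 °C 7 to 9 in iBAT, 2 to 5 in quadriceps, 0 to 6 in liver and 0 in ileum and brain. The genes that differed between iBAT and liver numbered 1 to 6 (5.53% to 10.1% of all genes) and between iBAT and quadriceps 2 to 3 (6.09% to 15.2%).

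Replicate numbers did not pair the samples: in 0 of 9 comparisons did every same-numbered pair correlate above 0.1 (−0.709 to 0.479). With a replicate block, 25 of 29 calls were kept, and the count was 3 in pgVAT (7 without), 9 in iBAT, 9 in ingSAT (7 without), 4 in ileum (3 without), 1 in liver, 2 in spleen and 0 in brain, hypothalamus and bone marrow. Most libraries did not correlate best with their own number. The block was not run for spinal cord, whose column numbers do not match the titles. Low counts limit Thrsp and Me1 in spleen and bone marrow.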
